A study of Mus musculus with 2 samples.

Results

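The microRNAs described here are the 75 mature arms whose array probes map to the miR-379 to miR-410 cluster on mouse chromosome 12, of 1080 miRNAs on the array. A miRNA was a member where a probe site listed in the scanner files (build mm9) fell in a 50 kb window around the cluster. Its members come from 38 hairpins, carried 194 of the 2780 miRNA probes, and span chr12:110947281-110986159, or 38.9 kb, from miR-379 to miR-3072, which lies beyond miR-410. The rule by position used no measured value, but the cluster was chosen with earlier results of these data known. The probe sites of all 75 members lie in the window. Both groups are tissue of ICR mice, the medial region of the mandibular arch, from which the tongue primordium forms. One pool of 40 embryos was taken at E10.5 and one of 40 at E11.5, and the RNA of each pool was labelled with Cy3 and hybridised to 1 array. The labels name no treatment and no altered allele for either group. With 1 array per stage there is no replicate, no test and no p-value, and every comparison below is one of these 2 arrays.

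The cluster belongs to the imprinted Dlk1-Dio3 domain, whose long noncoding RNAs and miRNAs are transcribed from the maternal allele only. Its hairpins lie in a dense array that is found in placental mammals and are thought to be cut from a long precursor RNA, part of which is annotated as the gene Mirg. Each hairpin can give a mature miRNA from its 5′ side and one from its 3′ side, and target choice rests mainly on the seed near the 5′ end of the mature RNA. In neurons the cluster is known to be switched on by Mef2, a transcription factor that also acts in muscle differentiation, and miR-134 of this cluster is known for limiting the size of dendritic spines through Limk1. In the gene table of GRCm38.p6, all 38 hairpins were found, and the 10 from miR-453 to miR-3072 lie within the span of Mirg while the other 28 do not. Members are named as in the scanner files, where an asterisk marks the arm that was considered the minor one.

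Mature sequences were found for 71 of the 75 members in RefSeq (build GRCm38.p6), and the lines below are 5′ to 3′ with the seed, bases 2 to 8, in capitals. The first 4 are both arms of the first 2 hairpins of the cluster, shown because miR-379* and miR-411* form the shared-seed pair in which both members were detected.
miR-379: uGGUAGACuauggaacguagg
miR-379*: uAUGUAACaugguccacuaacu
miR-411: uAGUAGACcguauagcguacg
miR-411*: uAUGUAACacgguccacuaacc
The next 6 are close pairs whose array readings or seeds can be set side by side.
miR-376a: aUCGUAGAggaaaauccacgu
miR-376b: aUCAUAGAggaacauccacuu
miR-300: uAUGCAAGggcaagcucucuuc
miR-381: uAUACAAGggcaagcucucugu
miR-495: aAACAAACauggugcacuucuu
miR-543: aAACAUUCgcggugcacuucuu
The last 4 are the pair of members that departed from the others between the arrays, miR-494 and miR-3072*, and the E11.5-only members with a fold bound above 1, miR-382* and miR-377.
miR-494: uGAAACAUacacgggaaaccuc
miR-3072*: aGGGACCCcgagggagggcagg
miR-382*: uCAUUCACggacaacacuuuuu
miR-377: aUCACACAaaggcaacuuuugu

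The 71 sequences hold 65 different seeds, and 6 seeds are held by more than 1 member. miR-379* and miR-411* share the seed AUGUAAC and differ at U10C and U22C, with positions counted from 1 at the 5′ end and the first-named miRNA's base given first. The pair miR-376a and miR-376b differ within the seed at G4A and outside it at A13C and G20U. A seed difference, G4A, also separates miR-300 from miR-381, which differ further at U21G and C22U. miR-495 and miR-543 differ at A6U, A7U, A9G and U10C. Seed GGUAGAC is shared by miR-379, detected on both arrays, and miR-1193-5p, detected on neither. The other 4 shared seeds are GGUUGAC (miR-1197* and miR-758*), GGUUGCC (miR-453 and miR-496*), GGUUGUC (miR-494* and miR-410*) and UGGAUAU (miR-376c* and miR-376b*), and none of these 8 members was detected. The precursors of the miR-376 group are known targets of A-to-I editing, which can change the seed; editing was not analysed here.

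Short runs of letters recur among the members, within the seed or beyond it. A script looked for the runs of 5 to 8 letters held by most members, on the mature strand only. The run of 5 held by most was GGUUG, in 12 of the 71 members (16.9%) and in 40 of 1608 other mouse mature sequences (2.49%). Of those 12 members, 9 are 5p arms, and 2 (miR-134 and miR-154*) were detected at E11.5. Its 8-letter extension GGUUGACC occurs in 5 members, miR-380-5p, miR-1197*, miR-758*, miR-134 and miR-154*, and in 0 of the 1608 others. GGUCCAC occurs in 5 members, all 3p arms, and in 0 of the others; of these, miR-379*, miR-411* and miR-380-3p were detected at E11.5, and miR-758 and miR-412-3p were detected at neither stage. These runs were chosen on the members' own sequences, and their counts describe the family only.

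At E10.5, 25 of the 75 members (33.3%) were detected, beside 13.3% of all miRNAs on the array. At E11.5, 33 members (44.0%) were detected, beside 18.4% of all miRNAs. Detection of a probe required that 50% or more of its spots exceed the background clearly, by the scanner software's own mark, and a miRNA needed 1 such probe. All 25 members seen at E10.5 were seen again at E11.5, so 8 members were detected at E11.5 only and 0 at E10.5 only, beside 5.74% and 0.648% of all miRNAs. In the rest of the Dlk1-Dio3 domain, upstream of the cluster, 13 of 36 miRNAs were detected at E11.5, of which 7 had been at E10.5. Outside the domain the shares were 11.6% and 15.8% of 969 miRNAs. These shares are descriptions, since miRNAs cut from one precursor are not independent of each other.

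The E11.5 array was brighter as a whole, and this touches each value below. Over the 218 probes detected on both arrays the 75th percentile of intensity went from 194 to 482, and dividing each array by its own value took 1.31 off every log2 difference. The lowest probe counted as detected read 30.9 at E10.5 and 29.5 at E11.5 before scaling, or 0.160 and 0.061 of the array's 75th percentile, so on the scaled values dimmer miRNAs could be detected at E11.5. Negative control spots averaged 7.87 ± 6.16 and 5.88 ± 5.60 (SD over 1000 spots each), and no miRNA spot was saturated. Of the marker miRNAs, those of skeletal muscle were detected for 0 of 4 at E10.5 and 4 of 4 at E11.5 (summed intensity 19.2 and 671), those of cranial mesenchyme for 3 of 3 on both arrays (6720 and 18141), those of epithelium for 4 of 6 on both (697 and 758), and those of cartilage for 2 of 2 on both (111.4 and 280). Red blood cell miRNAs were detected for 1 of 2 on both arrays (93.1 and 152). The neuronal markers miR-124 and miR-9 were detected on neither array (summed intensity -1.72 and 2.86), and neither were the 4 miRNAs of Hox-expressing trunk tissue (20.0 and 22.4). The part of any cell type in the cluster's readings was not tested, and a larger share of cells with these miRNAs cannot be told apart from more of the miRNAs per cell.

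**Figure D1:**
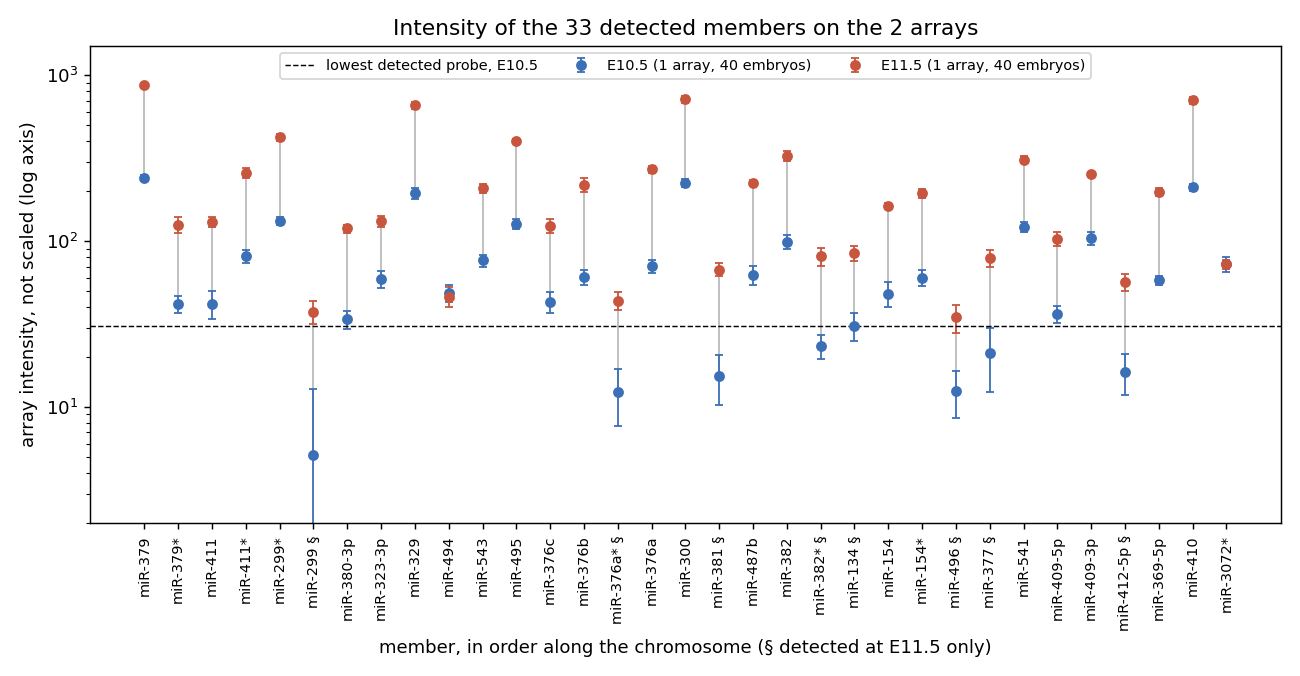
Intensity of the brightest probe of each of the 33 detected members on the E10.5 and E11.5 arrays, on a log axis and before scaling, in order along the chromosome. Bars are the SD over the spots of that probe and run below the axis for miR-299 at E10.5, the dashed line is the lowest detected probe at E10.5 (30.9), and the sign § marks members detected at E11.5 only. Between the arrays, 23 of the 25 members measured on both stand 2.23 to 3.86 times higher at E11.5, while the points of miR-494 and miR-3072* coincide.

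Before any scaling, the E11.5 reading was the brighter one for 23 of the 25 members measured on both arrays, beside 90.5% of the 137 miRNAs measured on both. All 23 were at least 2-fold brighter, beside 64.2% of the 137. The 23 ratios ran from 2.23 for miR-323-3p to 3.86 for miR-376a. After scaling, 21 of the 25 members were higher at E11.5, beside 47.4% of the 137, and 4 were lower. No member was 2-fold higher (0 of 25, beside 3.65%), and 2 were at least 2-fold lower (beside 13.9%). The median scaled log2 difference of the 25 was 0.35, and it was -0.10 with normexp background correction and an offset of 50, where 11 of 25 were higher. Only members above the detection limit on the dimmer E10.5 array could enter these counts, so the 25 are not all members.

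The 3 highest differences belonged to miR-376a, miR-379 and miR-376b. miR-376a read 70.2 ± 6.18 at E10.5 and 271 ± 12.4 at E11.5 (SD over 19 spots on each array), a scaled log2 difference of 0.64 ± 0.033 (SE over spots, here and below; it holds noise between spots of an array only). miR-379, the first member along the chromosome, read 241 ± 9.52 and 870 ± 23.7 with its brighter probe and 74.8 ± 8.67 and 277 ± 10.75 with the other, and its difference was 0.56 ± 0.021. miR-376b read 60.3 ± 6.43 and 219 ± 21.5, a difference of 0.54 ± 0.048. None of the 3 differences changed sign in any of the settings tried.

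Most of the other members followed within a narrow band. The scaled log2 differences were 0.52 ± 0.044 for miR-487b, 0.51 ± 0.046 for miR-380-3p, 0.48 ± 0.022 for miR-329, 0.46 ± 0.026 for miR-382, 0.44 ± 0.058 for miR-154, 0.41 ± 0.014 for miR-410, 0.40 ± 0.035 for miR-495, 0.37 ± 0.037 for miR-369-5p and 0.37 ± 0.026 for miR-154*. Lower in the band were miR-411* at 0.35 ± 0.038, miR-411 at 0.33 ± 0.065, miR-299* at 0.30 ± 0.028, miR-300 at 0.30 ± 0.020, miR-379* at 0.27 ± 0.064, miR-376c at 0.20 ± 0.078, miR-409-5p at 0.19 ± 0.050, miR-543 at 0.13 ± 0.034 and miR-541 at 0.12 ± 0.030. miR-409-3p, at -0.04 ± 0.024, lay within 2 SEs of 0, and miR-323-3p was at -0.16 ± 0.045. Neighbouring values in this order mostly lie within the sum of their SEs, so the order itself is not settled inside the band. The probe target of miR-299* is also wholly contained in miR-299b-5p, so its reading is uncertain as to which of the pair it reports.

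The third lowest difference was that of miR-323-3p, whose brighter probe read 59.0 ± 7.05 at E10.5 and 132 ± 9.80 at E11.5. The 2 lowest were of another kind, since their intensities did not move with the array. miR-494 read 48.8 ± 5.65 (20 spots) at E10.5 and 46.2 ± 6.38 (17 spots) at E11.5, a scaled difference of -1.39 ± 0.061. miR-3072*, the last detected member along the chromosome, read 72.4 ± 7.28 (20 spots) and 72.3 ± 4.75 (18 spots), a scaled difference of -1.32 ± 0.039. The mean ± SD of the 2 stages overlapped for both, where for the other 23 members the E11.5 reading was over 2 times the E10.5 reading. Without scaling the log2 differences were -0.08 for miR-494 and -0.001 for miR-3072*, and with the deposited value table they were -0.78 and -1.30.

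Both rest on a single short probe. The probe that gave the value was 14 bases long for miR-494 and 13 for miR-3072*, and no other member measured on both arrays was read by a probe under 15 bases. The other probe of miR-494, 15 bases long, did not reach detection on either array (17.7 ± 4.56 and 22.5 ± 6.03), nor was the other probe of miR-3072* (7.32 ± 3.12 and 13.6 ± 2.85). Outside Dlk1-Dio3, the 11 measured miRNAs read by a probe under 15 bases had a median difference of -0.66 and the other 94 of -0.21. The nearest other mouse mature sequence differed from the probed stretch at 3 bases for miR-494 (miR-6372) and at 2 bases for miR-3072* (miR-149-3p). The 2 probes of miR-149*, which are only 10 and 11 bases long, stayed at background (-6.80 and 0.39 at E10.5, -3.92 and 3.96 at E11.5). The part of probe length or of other RNAs in these readings was not tested. Leaving both members out, a choice made after their values were seen, the SD of the differences went from 0.50 over 25 members to 0.19 over 23, and the median from 0.35 to 0.37.

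**Figure D2:**
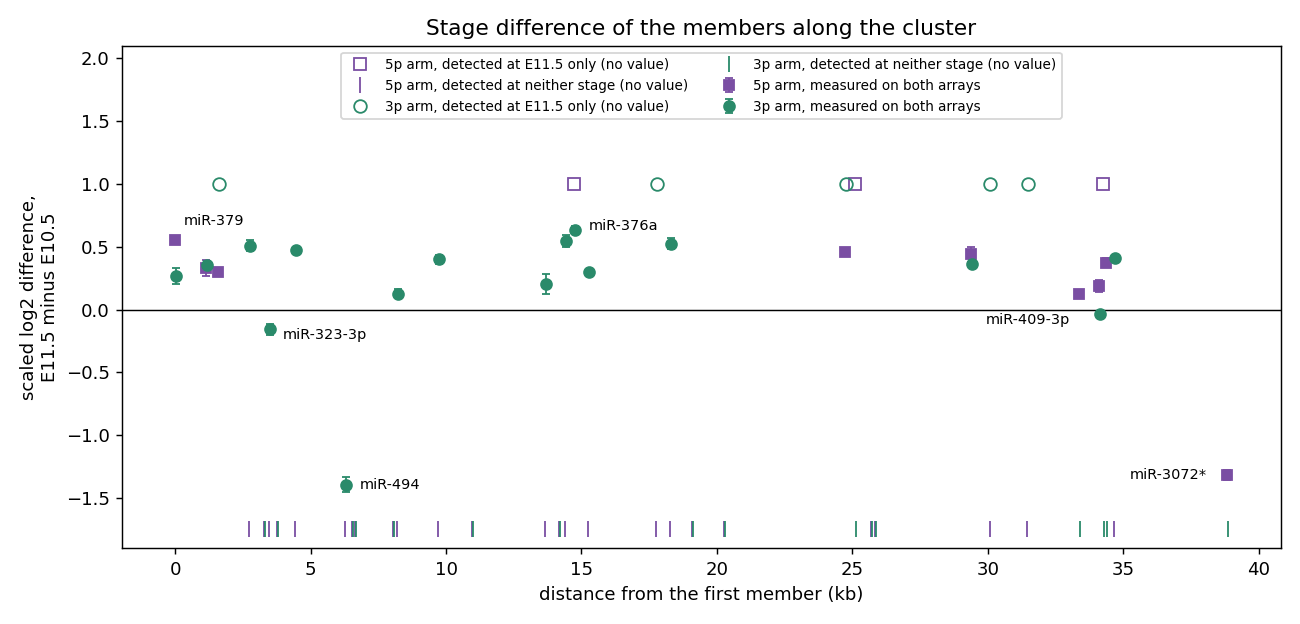
Scaled log2 difference (E11.5 minus E10.5) of the 25 members measured on both arrays, against distance in kb from the first member, with bars of 1 SE over spots. Squares are 5p arms and circles 3p arms; open symbols at a fixed height are the 8 members detected at E11.5 only and ticks at the foot the members detected at neither stage, which have no value. Most filled points lie between 0 and 0.64 over the whole length, with miR-494 and miR-3072* far below; with normexp correction 14 of the 25 lie below 0.

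Position along the cluster went with neither detection nor difference in a simple way. In the first 10 kb from miR-379, 12 of 28 members were detected at E11.5, in the next 10 kb 7 of 18, then 5 of 13, and in the last stretch 9 of 16. The median difference of the measured members was 0.33 in the first stretch (11 members), 0.52 in the second (5), 0.44 in the third (3) and 0.16 in the last (6). Across the 25 members, difference and position had a Pearson r of -0.16 and a Spearman rho of -0.15. These points share the 2 arrays and the labelling, so the correlation is a description. The second stretch holds the miR-376 group, from 0.20 for miR-376c to 0.64 for miR-376a. The lowest differences, those of miR-494 and miR-3072*, lie in the first and the last stretch. The part of single members in these medians was not tested.

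Among the members, the 3p arm was detected more often than the 5p arm. The shares of arms and hairpins over the whole array are not given here, so whether this is particular to the cluster was not tested. Of 37 hairpins with both arms on the array, the 3p arm was detected in 16 at E10.5 and in 21 at E11.5; the 5p arm was in 9 and 12. At E11.5 both arms were detected in 7 hairpins, the 3p arm alone in 14, the 5p arm alone in 5 and neither in 11. The 5p arm alone was seen in miR-134, miR-541, miR-412, miR-369 and miR-3072. Counting hairpins rather than arms, 21 of 38 had a detected arm at E10.5 and 26 at E11.5. The 5 hairpins that were added are miR-381, miR-134, miR-496, miR-377 and miR-412. The median difference was 0.36 over the 16 measured 3p arms and 0.33 over the 9 measured 5p arms.

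**Figure D3:**
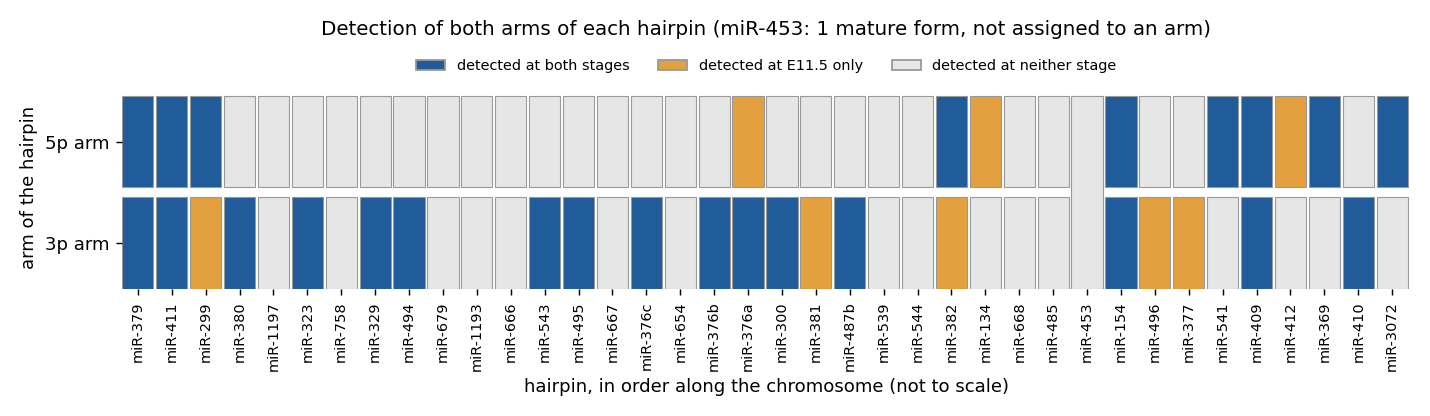
Detection of the 5p arm (upper boxes) and 3p arm (lower boxes) of each of the 38 hairpins, in order along the chromosome and not to scale: blue for both stages, orange for E11.5 only, grey for neither. Of the boxes coloured at E11.5, 21 are 3p arms and 12 are 5p arms, and no box is detected at E10.5 only; miR-453 has 1 mature form that is not assigned to an arm.

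In 4 hairpins both arms were measured on both arrays, which gives 2 readings of one precursor. For miR-379, the 5p arm had a difference of 0.56 ± 0.021, and the 3p arm, miR-379*, read 41.9 ± 4.87 at E10.5 and 126 ± 14.0 at E11.5 for a difference of 0.27 ± 0.064. The arms of miR-411 read 41.8 ± 7.92 and 131 ± 9.09 (miR-411) and 80.7 ± 7.32 and 256 ± 17.7 (miR-411*), and their differences lay 0.018 apart. The arms of miR-379 were thus 0.29 apart and those of miR-411 well inside their SEs.

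For miR-154, the 5p arm read 48.2 ± 8.48 at E10.5 and 163 ± 6.44 at E11.5; the 3p arm, miR-154*, read 60.2 ± 6.63 and 193 ± 11.8, with differences 0.073 apart. In miR-409, the 5p arm read 36.4 ± 4.29 and 103 ± 9.73 and the 3p arm 104 ± 9.37 and 252 ± 8.0, with the differences 0.23 apart. Over the 4 hairpins the median gap between arms was 0.15. For scale, where 2 probes read the same member on both arrays (11 members), their differences lay a median of 0.10 and at most 0.19 apart. The arm gaps of miR-379 and miR-409 were larger than that, and those of miR-411 and miR-154 were not. However, miR-379* and miR-409-5p each rest on 1 probe, at 41.9 and 36.4 at E10.5, near the lowest detected probe (30.9). The split also depends on the setting. With the value table miR-411 was at 0.89 and miR-411* at 0.31, and with normexp correction at -0.23 and 0.05. In both of the wider pairs the 5p arm had the higher difference as reported, but not in every setting. With the scanner software's gene detection flag, miR-379 was at 0.61 and miR-379* at 0.78. With normexp correction, miR-409-5p was at -0.36 and miR-409-3p at -0.23.

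miR-379* and miR-411*, which share a seed and come from adjacent hairpins, were both detected on both arrays with differences of 0.27 ± 0.064 and 0.35 ± 0.038. Their probed stretches differ at 2 bases, and how far each probe also bound the other miRNA was not tested. The same limit holds for miR-376a with miR-376b and for miR-300 with miR-381. miR-300 read 224 ± 12.4 and 715 ± 31.2 with its brighter probe, while its close relative miR-381 was detected at E11.5 only, at 67.2 ± 6.08 against 15.4 ± 5.12 at E10.5. miR-495 and miR-543, whose probed stretches differ at 4 bases, had differences of 0.40 ± 0.035 and 0.13 ± 0.034.

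Members detected at E11.5 only have a lower bound in place of a difference. It sets the E11.5 signal of the detected probes against the E10.5 array, taking there either the dimmest probe that was detected or that probe's signal, whichever is higher, and is the mean over a member's detected probes. miR-382* read 23.3 ± 3.94 at E10.5 and 80.8 ± 9.84 at E11.5, at least 1.05-fold higher after scaling and at least 2.61-fold brighter before it. miR-377 read 21.1 ± 8.83 and 79.2 ± 9.24, at least 1.03-fold higher after scaling and at least 2.56-fold brighter before it. With normexp correction, and with detection by every spot, the bounds of both fell under 1 (log2 -0.48 and -0.43 for miR-382*, -0.50 and -0.46 for miR-377), so no fold is left there. For the other 6, the bounds after this scaling fell under 1 and no scaled fold is given, while 8 of 8 bounds lay above 1 where all miRNA probes set the 75th percentile and 6 of 8 where control probes set the scale.

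Those 6 were miR-381, miR-412-5p, miR-134, miR-376a*, miR-299 and miR-496. Their unscaled bounds were at least 2.17-fold for miR-381, 1.84-fold for miR-412-5p, 1.63-fold for miR-134, 1.41-fold for miR-376a*, 1.21-fold for miR-299 and 1.12-fold for miR-496. miR-134, the member studied most for its role at dendritic spines, read 30.8 ± 5.84 at E10.5, where 30% of the spots of that probe were well above background, and 84.1 ± 8.57 at E11.5. Its probe is 13 bases long, and the 12 bases of its other detected probe differ at 2 bases from miR-758-5p, whose own arm was detected at neither stage. For all 8 members the probe was brighter at E11.5 than at E10.5. Since they were picked for detection at E11.5 only, that direction largely follows from the choice and is no separate result.

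The 42 members detected at neither stage comprise 25 5p arms, 16 3p arms and miR-453. They are miR-380-5p, miR-1197*, miR-1197, miR-323-5p, miR-758*, miR-758, miR-329*, miR-494*, miR-679-5p, miR-679-3p, miR-1193-5p, miR-1193-3p, miR-666-5p, miR-666-3p, miR-543*, miR-495*, miR-667*, miR-667, miR-376c*, miR-654-5p, miR-654-3p, miR-376b*, miR-300*, miR-381*, miR-487b*, miR-539-5p, miR-539-3p, miR-544-5p, miR-544-3p, miR-134*, miR-668*, miR-668, miR-485, miR-485*, miR-453, miR-496*, miR-377*, miR-541*, miR-412-3p, miR-369-3p, miR-410* and miR-3072. The brightest of them at E11.5 was miR-376b*, at 11.2 ± 6.08 at E10.5 and 26.4 ± 2.83 at E11.5. Of the 42, 32 were brighter on the E11.5 array (median intensity 0.86 at E10.5 and 2.85 at E11.5). Both medians lie below the mean of the negative control spots on their array. The share among the other undetected miRNAs of the array is not given here, so the count describes these members only. A level under background is a bound set by these probes, and says nothing of members present below it.

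Detected and undetected members overlapped in what their sequences share. Of the members with a sequence, the 31 detected at E11.5 had a median GC content of 45.5% (36.4% to 77.3%), and the 40 detected at neither stage one of 50% (23.8% to 72.7%). Both groups had a median length of 22 bases. Uracil was the first base in 15 of the 31 and adenine in 12, against 15 and 15 of the 40. Among the 23 measured members with a sequence, difference and GC content had a Pearson r of -0.62 and a Spearman rho of -0.43, and without miR-494 and miR-3072* r was -0.49 (21 members). For the probes themselves r was -0.65 (rho -0.43) over the 25 members, miR-494 and miR-3072* included. Over the 105 measured miRNAs outside Dlk1-Dio3 it was -0.18 (rho -0.11). Difference and signal level, the mean scaled log2 signal of the 2 arrays, had an r of 0.46 (rho 0.42) over the 25 members. Without miR-494 and miR-3072* these were 0.25 and 0.28 (23 members). The points share the 2 arrays and the labelling, and the part of base composition or signal level in the differences was not tested.

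Some seeds of the cluster occur in miRNAs encoded elsewhere. miR-329 shares ACACACC with miR-362-3p, which was detected at E11.5 only (24.1 ± 5.32 and 66.4 ± 5.53), while miR-329 itself read 194 ± 15.1 and 657 ± 33.3 on the earlier and later array with its brighter probe. miR-495 shares AACAAAC with miR-1192, and miR-410 shares AUAUAAC with miR-344d and miR-344e; these 3 partners were detected on neither array. For miR-495 and miR-410, the detected holder of the seed among the array's matched miRNAs was thus the cluster's own member.

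**Figure D4:**
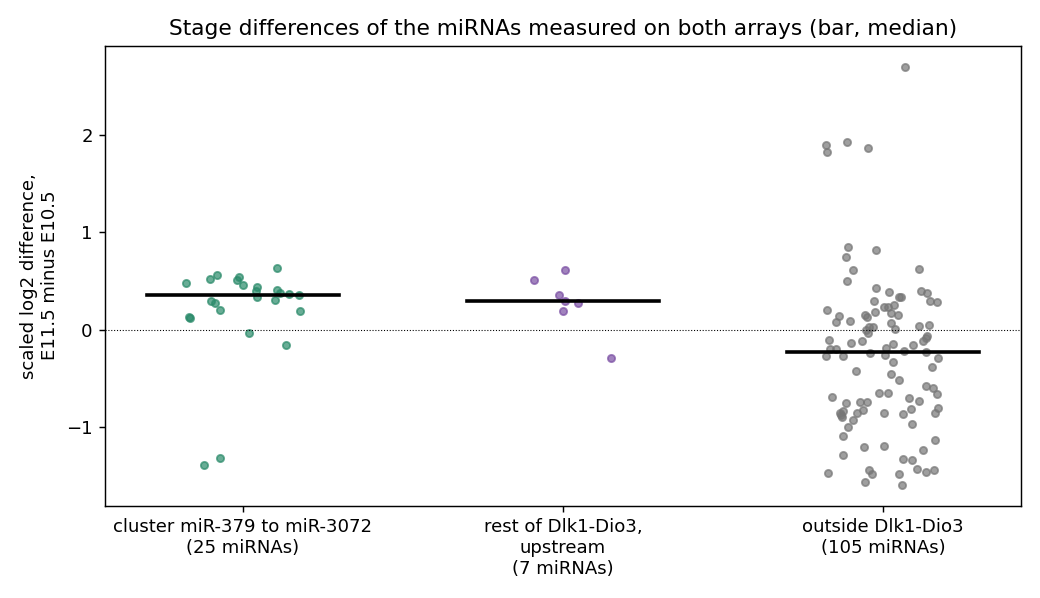
Scaled log2 difference (E11.5 minus E10.5) of each miRNA measured on both arrays, for the 25 members of the cluster, the 7 miRNAs of the rest of Dlk1-Dio3 and the 105 outside the domain; black bars are medians (0.35, 0.30 and -0.23) and the sideways spread of points has no meaning. The cluster lies in a narrow band apart from 2 low members, inside the wider range of the other miRNAs; with normexp correction the cluster's median is -0.10 and that of the outside miRNAs -0.42.

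Set beside the rest of the array, the cluster and its upstream neighbours read alike. The 7 measured miRNAs of the rest of Dlk1-Dio3 had a median difference of 0.30, with 6 above 0, from -0.29 for miR-341 to 0.61 for miR-127, a miRNA that is antisense to Rtl1. The 105 measured miRNAs outside the domain had a median of -0.23 and an SD of 0.81, with 38 above 0. The cluster's median lay 0.58 above the outside median. This gap does not depend on how the arrays are scaled against each other by a single factor, and it ran from 0.33 with normexp correction to 0.78 with no detection filter and a floor. The median over all 137 miRNAs measured on both arrays was -0.07. None of these gaps was tested, since each rests on 1 array per stage.

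**Figure D5:**
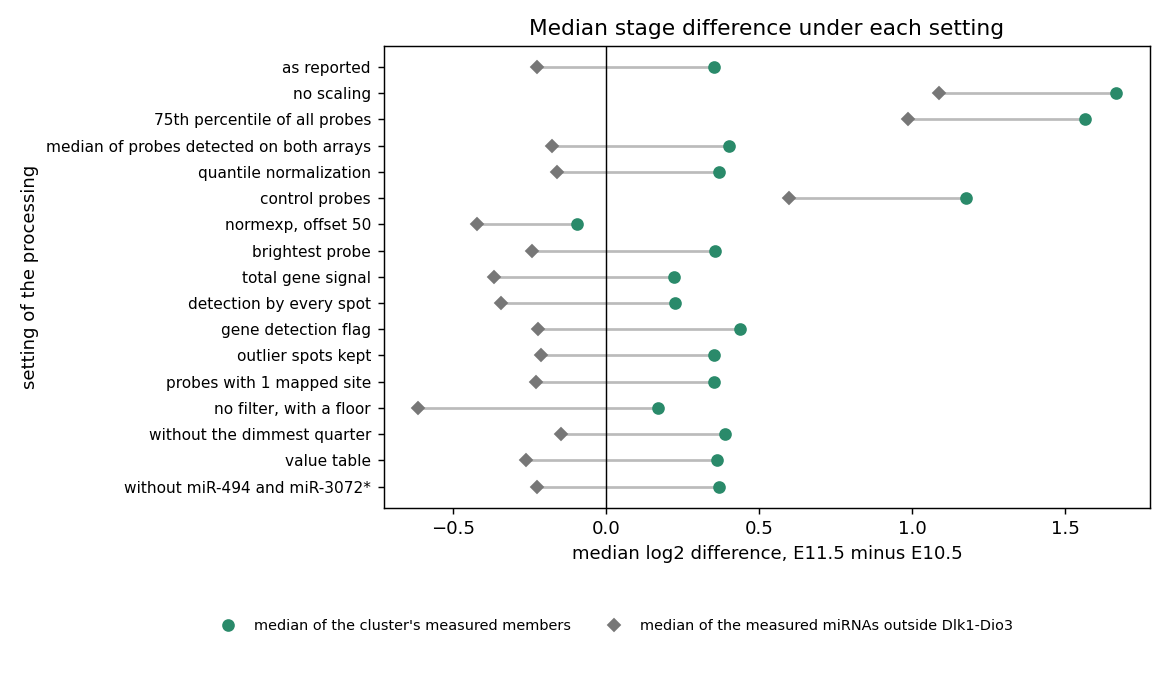
Median log2 difference (E11.5 minus E10.5) of the cluster's measured members (circles) and of the measured miRNAs outside Dlk1-Dio3 (diamonds) under each setting of the processing. The circle lies to the right of the diamond in each setting run, while its place relative to 0 moves from -0.10 with normexp to 1.67 with no scaling.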

How the data were processed

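In the deposited scanner files each spot has a 1-colour (Cy3) intensity, background-subtracted and not normalized between arrays, per the file headers, which name Feature Extraction 10.7.1.1 and build mm9; the submitters' processing notes name 9.5.1.1. The authors' value table gives 1 intensity per miRNA and served as an alternative. Outlier spots were left out (131 and 155 of the 3000 member spots of the arrays), and the others averaged per probe. Each array was scaled to its 75th percentile, taken over the 218 probes that both detected. Positions are as the scanner files list them. A member's difference is the log2 ratio of E11.5 to E10.5, averaged over those of its probes that both arrays detected. Members and lists were chosen with earlier results of these data known. The rule for names was to give all members detected, with values for the 3 highest and lowest differences, arm pairs, shared seeds and end members; miR-300, miR-381, miR-495, miR-543, miR-329, miR-382*, miR-377, miR-134, miR-362-3p, miR-149*, miR-341 and miR-127 were added after values were seen. The calculation of the differences was tested on simulated spots, under the reported setting only, with a fixed cut for detection and no outlier spots. Bounds, sequence steps and the alternative settings were not simulated. Tools were R 4.3.3 with limma 3.58.1, and Python 3.11.15 with pandas 2.3.3, numpy 2.4.6, matplotlib 3.10.9 and scipy 1.17.1.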

Additional observations from a re-analysis of the deposited data

How the results depend on the processing

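The counts of members detected (25 and 33) rest on the scanner software's mark, which scaling and background correction leave untouched, so those settings could not test them. Requiring every spot gave 21 and 31. The gene flag gave 28 and 37, as did the value table, and keeping outlier spots left 25 and 33. The count of members higher at E11.5 stayed within 1.5 times in all but 1 of the 15 alternatives set out first. With normexp correction and an offset of 50 that count was 11 and the median difference reversed to -0.10, with an SD of 0.36, an arm gap of 0.21 and a gap to the miRNAs outside Dlk1-Dio3 of 0.33; the cause was not tested. The median was 1.67 where nothing was scaled, 1.57 where all miRNA probes set the 75th percentile, 1.18 where control probes set the scale, 0.40 with the median of probes detected on both arrays, 0.22 with the total gene signal, 0.23 with detection by every spot, 0.44 with the gene detection flag and 0.17 with no filter and a floor. Members at least 2-fold apart numbered 23, 23 and 19 with the first 3 of these, 4 with a floor, 1 with the gene detection flag, 1 with the value table, 0 with the 25% dimmest miRNAs left out and 0 without miR-494 and miR-3072*. The SD within the cluster was 0.54 with detection by every spot, 0.42 with the gene detection flag, 0.56 with a floor, 0.21 without those dimmest miRNAs, 0.46 with the value table and 0.19 without miR-494 and miR-3072*. The median arm gap over 4 hairpins was 0.25 with a floor and 0.23 with the value table; only 1 hairpin kept both arms with detection by every spot (miR-379, gap 0.29) and without the dimmest miRNAs (miR-154, gap 0.073). Of the bounds of members detected at E11.5 only, 2 of 8 lay above 1 as reported, 0 of 8 with normexp, 0 of 6 with detection by every spot, 5 of 5 with the gene detection flag, 6 of 8 with control probes, and 8 of 8 with no scaling or with all probes setting the percentile. The gap to the outside miRNAs, added after seeing the data, was 0.53 with quantile normalization, 0.66 with the gene detection flag, 0.78 with a floor, 0.53 without the dimmest miRNAs and 0.63 with the value table. With a floor, probes at the floor on both arrays were left out. Signs changed for 10 members with normexp and for at most 2 under any of the other 14. No paired analysis was possible because each stage has 1 array. Signal over background limits the readings: 42 members have no value at all, and 8 have a bound only.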
